A study of Mus musculus with 14 samples.

Results

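Klf2, Klf3, Klf4, Klf5 and Klf6 are 5 of the 23174 rows of a gene expression table of mouse stem cells. They were chosen by symbol, and each symbol had 1 row. Their division was chosen by measured FPKM values, namely the mean level in established extraembryonic endoderm stem cell (XEN) lines against that in embryonic stem cells (ESCs). Klf2 and Klf3 are called the lost members here, and Klf4, Klf5 and Klf6 the kept members. No cut-off was set, and the line falls between Klf3, with a XEN mean 20.1% of the ESC mean, and Klf4, with 48.0%. Kept therefore covers Klf4, which was lower in XEN lines, and Klf6, whose XEN mean was 356% of the ESC mean. That division uses measured values, so the levels in XEN lines against those in ESCs are given as a description, with no test.

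Krüppel-like factors are transcription factors that bind GC-rich and CACCC sequences through zinc fingers near their C terminus. In mouse ESCs, Klf2, Klf4 and Klf5 are known as overlapping supports of self-renewal, with Klf4 a target of LIF and STAT3 signalling. XEN cells are the cultured counterpart of the primitive endoderm, the early embryonic layer that goes on to form the yolk sac lining.

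The table holds 14 polyA RNA-seq libraries, 12 from a differentiation course of 4 ESC lines and 2 from the XEN lines XENB1 and XEN5. The course lines were wild-type 3WT, the Zfp281 knockouts 3.34Null and 2.6Null, and 3.34Null-Rescue, which is the 3.34 knockout with Zfp281 restored. Each line gave 1 library as ESC, 1 at passage 1 (cXENp1) and 1 at passage 3 (cXENp3) of chemical induction towards XEN. 3WT and 3.34Null-Rescue are together called Zfp281-present, and 3.34Null and 2.6Null Zfp281KO. The strain background was 129S1/SVImJ, or 129S1 for XENB1, and both XEN lines were wild-type. ESCs grew without feeders on gelatin in serum with LIF. For induction, cells were moved to XEN medium, in whose listed components LIF does not appear, and given 0.01 µM retinoic acid together with 10 ng/mL activin A over 48 h, which ended passage 1. Passage 2 was grown on fibroblast feeders and passage 3 on gelatin, and the XEN lines were kept on gelatin in medium conditioned by fibroblasts. The title of the line called 2.6Null here differs from its cell line field, which gives 2.26. The way in which Zfp281 was restored or deleted, and whether each line is 1 clone, are not given in the sources used here.

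Values are FPKM (fragments adjusted for transcript length and for library total), and the table carries no read counts, so the depth of each library is unknown. The library sums ran from 424406 to 718138, lowest at cXENp1 and highest in ESC, and 14972 to 16831 genes were above 0. No pair of libraries held identical values. Zfp281 was 27.7 to 28.5 FPKM in Zfp281-present ESCs and 0 to 3.92 in Zfp281KO ESCs, and the classes did not overlap at any stage. The summed level of 10 ESC markers was 7163 to 9864 FPKM in ESCs, 3975 to 7600 in Zfp281-present cXENp3, 210 to 1012 in Zfp281KO cXENp3 and 6.10 to 31.4 in XEN lines. Trophoblast markers summed to 4.38 to 124 FPKM over the libraries. The sum of 10 XEN markers was 34.8 to 63.7 FPKM in Zfp281-present cXENp3, 3205 to 4502 in Zfp281KO cXENp3 and 3284 to 4328 in XEN lines. Zfp281-present cXENp3 libraries were thus high in ESC markers and low in XEN markers, against their stage label. The 3WT, 3.34Null and 3.34Null-Rescue ESC libraries carry the library prefix JH and the other 11 carry XH.

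The promoters are shown because the members went different ways through the course. The set of RefSeq promoters used here (GRCm38.p6) held entries for 4 of the 5 members and none for Klf5. Each line gives the 250 bases before the annotated start, read 5′ to 3′ along the gene. Klf2 lies at chr8:72318812-72319061 on the plus strand, Klf3 at chr5:64803271-64803520 on the plus strand, Klf4 at chr4:55532476-55532725 on the minus strand and Klf6 at chr13:5861239-5861488 on the plus strand. Capitals mark, on either strand, the CACCC box CCACCC and the GC box GGGCGG.
Klf2: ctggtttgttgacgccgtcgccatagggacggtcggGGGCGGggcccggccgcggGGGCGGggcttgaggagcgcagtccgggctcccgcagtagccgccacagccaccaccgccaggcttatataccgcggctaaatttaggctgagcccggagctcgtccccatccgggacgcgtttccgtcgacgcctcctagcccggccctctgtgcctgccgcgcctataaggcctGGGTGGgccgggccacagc
Klf3: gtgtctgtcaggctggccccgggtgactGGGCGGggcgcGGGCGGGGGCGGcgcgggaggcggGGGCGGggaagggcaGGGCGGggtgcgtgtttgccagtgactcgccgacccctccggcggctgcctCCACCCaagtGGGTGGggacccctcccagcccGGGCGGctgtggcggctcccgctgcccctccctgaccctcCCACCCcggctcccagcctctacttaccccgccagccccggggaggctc
Klf4: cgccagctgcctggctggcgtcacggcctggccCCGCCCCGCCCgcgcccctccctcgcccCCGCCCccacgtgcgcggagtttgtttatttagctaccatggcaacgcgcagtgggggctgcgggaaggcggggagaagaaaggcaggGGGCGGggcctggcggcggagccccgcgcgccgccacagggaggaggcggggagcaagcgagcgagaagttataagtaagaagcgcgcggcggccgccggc
Klf6: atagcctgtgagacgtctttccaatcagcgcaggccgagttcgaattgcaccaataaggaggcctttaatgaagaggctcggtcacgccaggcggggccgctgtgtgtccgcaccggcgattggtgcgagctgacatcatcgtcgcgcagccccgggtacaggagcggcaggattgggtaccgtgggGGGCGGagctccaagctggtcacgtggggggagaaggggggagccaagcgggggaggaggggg
CACCC boxes numbered 1 in Klf2, 3 in Klf3 and 0 in Klf4 and Klf6. The kept member Klf5 is missing here, and these few genes cannot link the box to the division. A CACCC box stood in 28.1% of 32851 RefSeq promoter windows of that length. GC boxes numbered 2 in Klf2, 6 in Klf3, 4 in Klf4 and 1 in Klf6, counting overlapping matches, and 32.7% of windows held at least 1. These matches describe letters in a window and say nothing of binding.

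In the table's own coordinates, counted from 1, Klf2 (XLOC_019946) spans chromosome 8 from 74842961 to 74845553 and Klf3 (XLOC_015212) chromosome 5 from 65194762 to 65221368. Klf4 (XLOC_014471) spans chromosome 4 from 55540009 to 55545347, Klf5 (XLOC_006096) chromosome 14 from 99697910 to 99712628 and Klf6 (XLOC_004855) chromosome 13 from 5860735 to 5869639. The submitters' processing notes name mm9, with no role given. Of 21029 symbols shared with RefSeq (GRCm38.p6), 2.69% started within 100 bases of the RefSeq start. These spans therefore cannot be set against the promoter positions above. Each value covers the whole gene.

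Klf2, the member best known for holding ESCs in the naive state together with Klf4, stood at 382 FPKM in 3WT, 395 in 3.34Null-Rescue, 124 in 3.34Null and 84.3 in 2.6Null ESCs. In the XEN lines it was 15.6 FPKM in XENB1 and 5.81 in XEN5, so the XEN mean was 4.35% of the ESC mean. Every XEN value lay below every ESC value.

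Klf3, which represses transcription by recruiting CtBP proteins, was 78.5, 59.2, 89.0 and 43.4 FPKM in 3WT, 3.34Null-Rescue, 3.34Null and 2.6Null ESCs. It was 12.5 FPKM in XENB1 and 14.6 in XEN5, a mean of 20.1% of that in ESCs. Klf3 is the lost member nearest the dividing line, and Klf4 is the nearest on the other side.

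Klf4, one of the reprogramming factors, was 139, 117, 188 and 103 FPKM in the same ESC order and 66.7 and 64.5 in XENB1 and XEN5. Its XEN mean was 48.0% of the ESC mean, so a kept member here still stood below every ESC library. Klf5, an activator of growth genes that also acts in the trophectoderm and inner cell mass, was 95.1, 51.7, 54.5 and 174 FPKM in ESCs and 81.1 and 70.0 in XEN lines. Its XEN mean was 80.5% of the ESC mean, and the XEN values fell inside the ESC range.

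Klf6, a broadly expressed member with immediate early behaviour in many cells, ran the other way. It was 12.7, 10.7, 11.52 and 15.1 FPKM in ESCs and 57.1 and 32.1 in XENB1 and XEN5, a mean 3.56-fold that of ESCs. Over all 12372 genes tested between XEN lines and ESCs, 41.9% were called, 22.2% higher and 19.7% lower, and nothing is read from the members against that share. In bulk libraries, fewer cells of a type and less RNA per cell cannot be told apart.

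**Figure D1:**
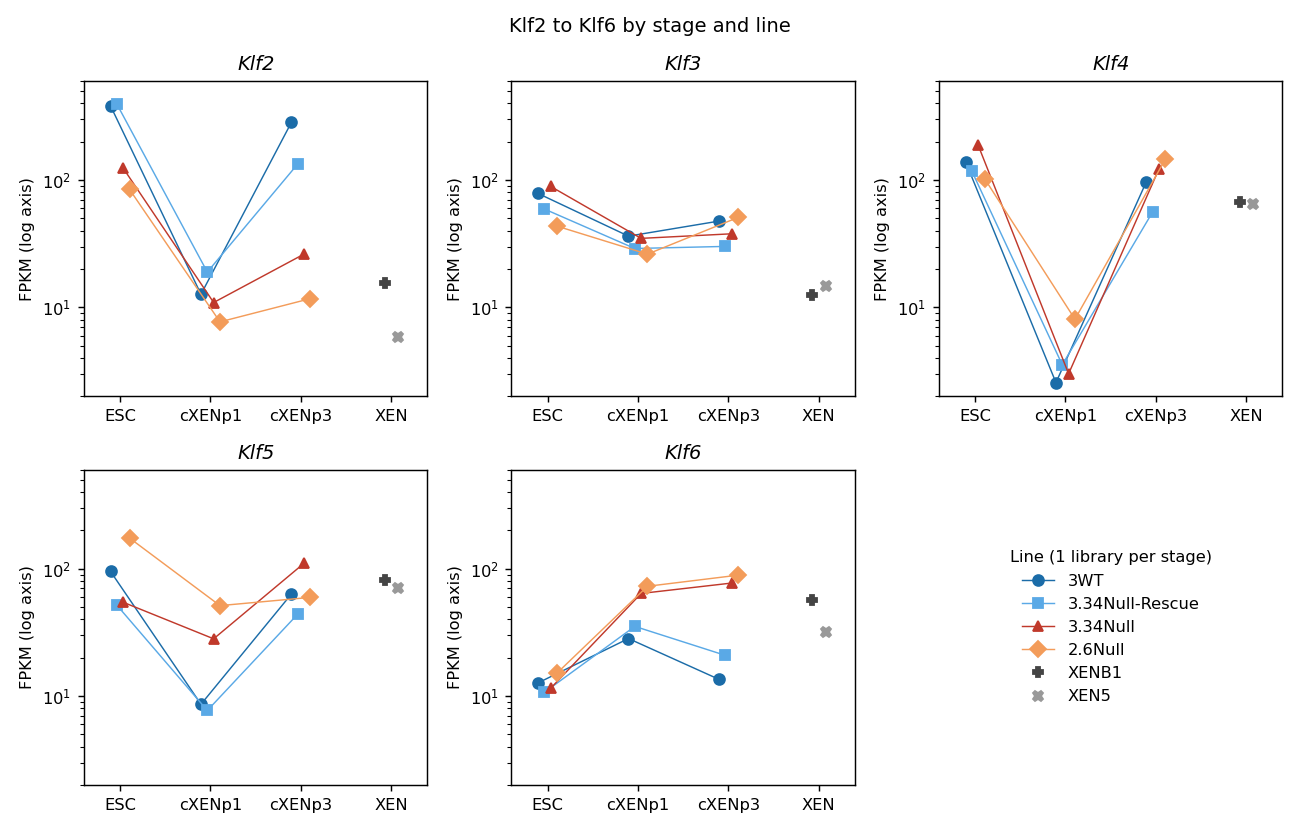
Level of each member in FPKM on a log axis, 1 point per library, by stage and line. Klf2 stands at 382 and 395 FPKM in Zfp281-present ESCs and at 15.6 and 5.81 in the XEN lines, while Klf6 rises from 10.7 to 15.1 in ESCs to 57.1 and 32.1 there.

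The first comparison asks how the members moved in the first passage of induction, cXENp1 against ESC within each line. Klf2, Klf3, Klf4 and Klf5 fell and Klf6 rose, each in 4 of 4 lines. All 5 were called where limma called 28.5% of 13191 genes, 14.7% higher and 13.8% lower. These ESC libraries also set the division into kept and lost members.

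Klf4 was 2.56, 3.53, 3.00 and 8.06 FPKM at cXENp1 in 3WT, 3.34Null-Rescue, 3.34Null and 2.6Null, or 1.60% to 7.84% of each line's own ESC level. It changed by -4.77 on the log2(FPKM + 1) scale (SE 0.32, limma adjusted p = 6.40e-05). A kept member thus had the lowest passage 1 level of the 5 in 3 of the 4 lines. Klf2 was 12.7, 18.9, 10.9 and 7.68 FPKM, 3.31% to 9.10% of its ESC level, with a change of -3.95 (SE 0.50, adjusted p = 0.000966). 

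Klf5 was 8.61 and 7.69 FPKM in 3WT and 3.34Null-Rescue but 28.1 and 51.3 in 3.34Null and 2.6Null at cXENp1. Its change was -2.15 (SE 0.44, adjusted p = 0.00842). The 2.6Null value at cXENp1 came close to the lowest ESC value, 51.7 FPKM, without reaching it. Klf3 was 36.2, 29.0, 34.8 and 26.2 FPKM, a change of -1.03 (SE 0.22, adjusted p = 0.0103), which left it at 39.1% to 60.3% of its ESC level. The lost member Klf3 therefore kept more of its level through passage 1 than the kept member Klf4 in each line. Klf6 rose to 28.3, 35.2, 63.9 and 72.8 FPKM, a change of 1.82 (SE 0.37, adjusted p = 0.00822).

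The median gene moved by 0.47 in this comparison once each library was scaled to TPM, and Klf3 was then not called, at -0.52 (adjusted p = 0.117). Without the 3.34Null line Klf3 was not called (-0.94, adjusted p = 0.0647), nor without 3.34Null-Rescue (-1.04, adjusted p = 0.0601), and without 3.34Null-Rescue Klf5 was not called either (-1.999, adjusted p = 0.0617). With the library prefix as a term, which only 2.6Null ESC tells apart from stage, Klf4 alone was called, and Klf2 was -4.13 (adjusted p = 0.0549), Klf3 -0.43 (adjusted p = 0.389), Klf5 -2.55 (adjusted p = 0.101) and Klf6 2.48 (adjusted p = 0.0722).

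The second comparison follows the lines from cXENp1 to cXENp3 within each class. In Zfp281-present lines Klf2, Klf4 and Klf5 rose and Klf6 fell, 4 of 5 members against 10.5% of all genes (4.85% higher and 5.67% lower). In Zfp281KO lines Klf4 alone was called, and it rose, against 22.5% of all genes (12.9% higher and 9.58% lower). The difference between the classes' changes was tested for each member, and Klf2 alone was called.

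Klf4 came back in both classes, to 97.0 and 56.2 FPKM in 3WT and 3.34Null-Rescue and to 123 and 146 in 3.34Null and 2.6Null. The changes were 4.22 (SE 0.44, adjusted p = 0.00268) and 4.48 (SE 0.44, adjusted p = 0.000677). Its fall at cXENp1 was thus followed by a rise in every line, to 47.9% to 141.9% of the line's own ESC level.

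Klf2 came back in Zfp281-present lines. It was 284 FPKM in 3WT and 134 in 3.34Null-Rescue at cXENp3, against 26.2 in 3.34Null and 11.7 in 2.6Null. The rise was 3.57 in Zfp281-present lines (SE 0.36, adjusted p = 0.00238) and 0.87 in Zfp281KO lines (SE 0.36, adjusted p = 0.117). The difference between these changes, Zfp281KO minus Zfp281-present, was itself called at -2.70 (SE 0.50, adjusted p = 0.0187). It was negative in 4 of 4 pairs of lines, which share lines and are not independent. That comparison called 12% of all genes, 7.35% higher and 4.65% lower, and 1 of the 5 members. The call was lost without 3WT (-1.89, adjusted p = 0.179) and without 2.6Null (-2.38, adjusted p = 0.0894).

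Klf5 rose by 2.56 in Zfp281-present lines (SE 0.50, adjusted p = 0.0196), to 63.3 and 44.0 FPKM. In Zfp281KO lines it was 110 FPKM in 3.34Null and 59.6 in 2.6Null, a change of 1.07 that was not called (SE 0.50, adjusted p = 0.161), from a level that was already higher at cXENp1. Without 2.6Null this change was 1.94 (adjusted p = 0.0139), but it then rests on 3.34Null alone, with 1 library a stage and the spread taken from the other groups. Klf6 fell in Zfp281-present lines by 0.87 on the log2 scale (SE 0.22, adjusted p = 0.0457), to 13.5 and 20.9 FPKM, and stood at 77.2 and 89.0 FPKM in Zfp281KO lines, where its change was 0.28 (SE 0.22, adjusted p = 0.405). The difference of these Klf6 changes was 1.15 (SE 0.32, adjusted p = 0.0518), not called. Klf3 was 47.6, 30.1, 37.8 and 50.8 FPKM at cXENp3 and was called in neither class, with changes of 0.22 (adjusted p = 0.667) and 0.52 (adjusted p = 0.254).

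Single lines bear on the Zfp281-present calls. Without 3WT, Klf2 alone was called, with Klf4 at 3.66 (adjusted p = 0.0783), Klf5 at 2.37 (adjusted p = 0.324) and Klf6 at -0.73 (adjusted p = 0.539). Without 3.34Null-Rescue, Klf5 was 2.74 (adjusted p = 0.118) and Klf6 -1.01 (adjusted p = 0.163). Klf6 also missed the threshold without 2.6Null (adjusted p = 0.0524) and without 3.34Null (adjusted p = 0.0566), lines that enter only the shared spread.

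**Figure D2:**
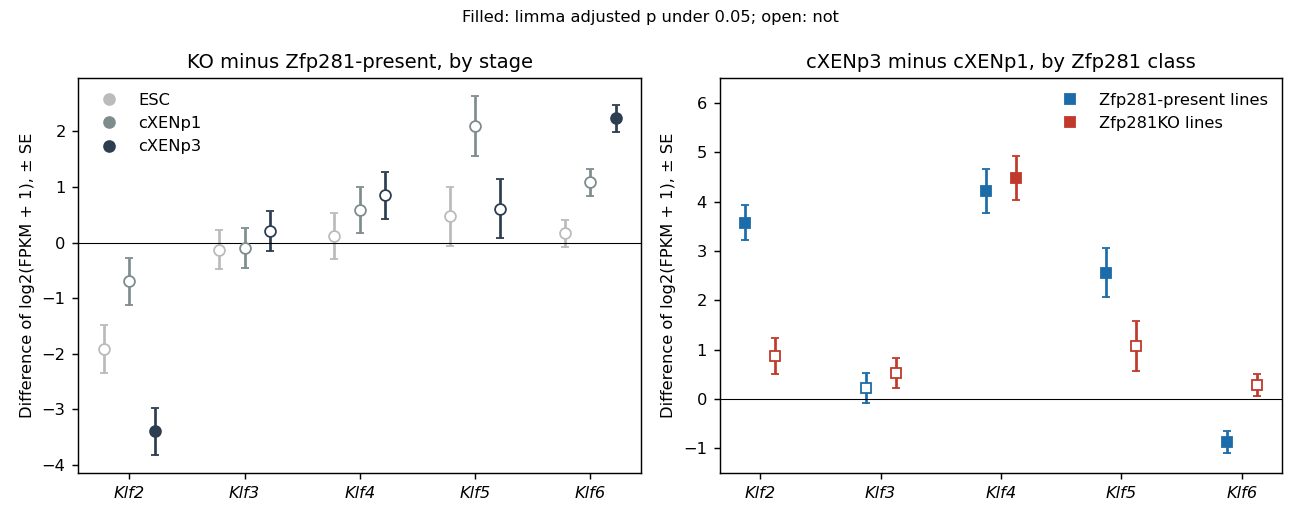
Difference of log2(FPKM + 1) with its standard error for each member, Zfp281KO minus Zfp281-present by stage on the left and cXENp3 minus cXENp1 by class on the right, with filled symbols for limma calls. On the right, Klf4 stands at 4.22 and 4.48 from cXENp1 to cXENp3 in the classes, where Klf2 stands at 3.57 and 0.87.

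The third comparison sets Zfp281KO against Zfp281-present lines at each stage, the contrast the knockout design was built for. At cXENp3, Klf2 was lower and Klf6 higher in Zfp281KO lines, and Klf3, Klf4 and Klf5 were not called. In ESCs and at cXENp1 none of the 5 was called by limma.

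At cXENp3 Klf2 changed by -3.40 (SE 0.43, adjusted p = 0.000455), an 11.0-fold higher mean in Zfp281-present lines. Klf6 changed by 2.23 (SE 0.24, adjusted p = 0.000247), a 4.83-fold higher mean in Zfp281KO lines. Both genes were called in 12 of 12 alternative analyses. Of all genes 41.9% were called at this stage, 22.9% higher and 19% lower, so 2 of 5 members is near the background share. Klf4 was 0.85 (SE 0.41, adjusted p = 0.126), Klf5 0.61 (SE 0.54, adjusted p = 0.385) and Klf3 0.21 (SE 0.35, adjusted p = 0.667).

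The pair from the same cell line shows the Klf2 and Klf6 values most directly, since 3.34Null-Rescue carries the 3.34 knockout. Klf2 was 5.10-fold higher in 3.34Null-Rescue than in 3.34Null at cXENp3, and 3.19-fold higher in ESCs. Klf6 was 3.70-fold higher in 3.34Null than in 3.34Null-Rescue at cXENp3. Each is a pair of single libraries and has no replicate check.

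Feeder fibroblast markers were also summed, since fibroblast feeders were used during induction. The sum of 10 such markers at cXENp3 was 37.6 FPKM in 3WT, 1278 in 3.34Null-Rescue, 289 in 3.34Null and 374 in 2.6Null, and 560 to 646 in the XEN lines. 3WT had Lum listed at 0, and 3.34Null-Rescue had 10 of 10 fibroblast markers at 1 FPKM or more. Of the 10, 1 was called between classes, Twist1, higher in Zfp281KO lines, where 41.9% of all genes were called. The 3.34Null-Rescue library, highest in these markers, had Klf2 at 134 FPKM and Klf6 at 20.9. The XEN lines were kept on gelatin, so the fibroblast marker sums cannot tell feeder RNA from RNA of the lines themselves. ESC and XEN marker sums separated the classes at this stage, as given above. The part of feeder, ESC or XEN markers in the member values was not tested.

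In ESCs, Klf2 was 382 and 395 FPKM in Zfp281-present lines and 124 and 84.3 in Zfp281KO lines, a 3.73-fold difference of means. The change was -1.92 (SE 0.43) with an unadjusted p of 0.00117 and an adjusted p of 0.0518, just above the threshold. Klf2 was called in 3 of 12 alternative analyses and missed the threshold in the rest, with a negative change in each. Calls came among genes with a mean of at least 5 FPKM (limma adjusted p = 0.0457) and after scaling to TPM (adjusted p = 0.0411). Without 3.34Null it was -2.19 (adjusted p = 0.0251), with 2.6Null as the lone Zfp281KO library and a spread taken from the other groups. Of all genes 1.97% were called, 1.05% higher and 0.917% lower, and 2762 had an unadjusted p under 0.05. The other 4 members were not called in ESCs, with adjusted p of 0.686 to 0.941. 2.6Null ESC differs from the other ESC libraries in its prefix and in having 10 of 10 XEN markers at 1 FPKM or more, with a sum of 75.9 FPKM.

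At cXENp1, the Klf5 and Klf6 means were higher in Zfp281KO than in Zfp281-present lines, and neither difference was called. The 2.6Null library, highest in both genes, stood apart in its XEN marker sum, 836 FPKM against 104 to 130 in the other 3 lines, and the part of this in the values was not tested. Klf5 had a mean 4.87-fold higher, a change of 2.095 (SE 0.54) with an unadjusted p of 0.00293 and an adjusted p of 0.142. Klf6 had a mean 2.15-fold higher, a change of 1.09 (SE 0.24) with an unadjusted p of 0.00121 and an adjusted p of 0.0983. Of all genes 0.485% were called at this stage, 0.364% higher and 0.121% lower, and 1486 had an unadjusted p under 0.05. Without 3.34Null the Klf5 change was 2.52 (adjusted p = 0.0224), but the Zfp281KO side is then the 2.6Null library alone, assumed to vary like the other groups. Klf2 was -0.70 (adjusted p = 0.602), Klf3 -0.10 (adjusted p = 0.969) and Klf4 0.58 (adjusted p = 0.671).

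The makeup of the group changed as well as its total. The 5 members together reached 708 FPKM in 3WT and 634 in 3.34Null-Rescue ESCs, and 466 and 420 in 3.34Null and 2.6Null. At cXENp1 the sum was 88.3, 94.3, 141 and 166 FPKM in the same order, the lowest of each line's stages. At cXENp3 it was 505, 285, 374 and 357 FPKM, and in XENB1 and XEN5 it was 233 and 187.

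Klf2 made up 54.0% and 62.3% of the sum in Zfp281-present ESCs and 56.2% and 46.9% at their cXENp3 stage. In Zfp281KO lines its share was 26.5% and 20.1% in ESCs and 7.0% and 3.28% at cXENp3, beside 6.70% and 3.11% in XENB1 and XEN5. Klf2 was the highest member in Zfp281-present ESC and cXENp3 libraries, Klf4 in Zfp281KO cXENp3 libraries and Klf5 in both XEN lines. Klf3 was highest in 3WT at cXENp1 and Klf6 in the other 3 lines at that stage. FPKM is scaled to gene length, so these orders compare levels per length.

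**Figure D3:**
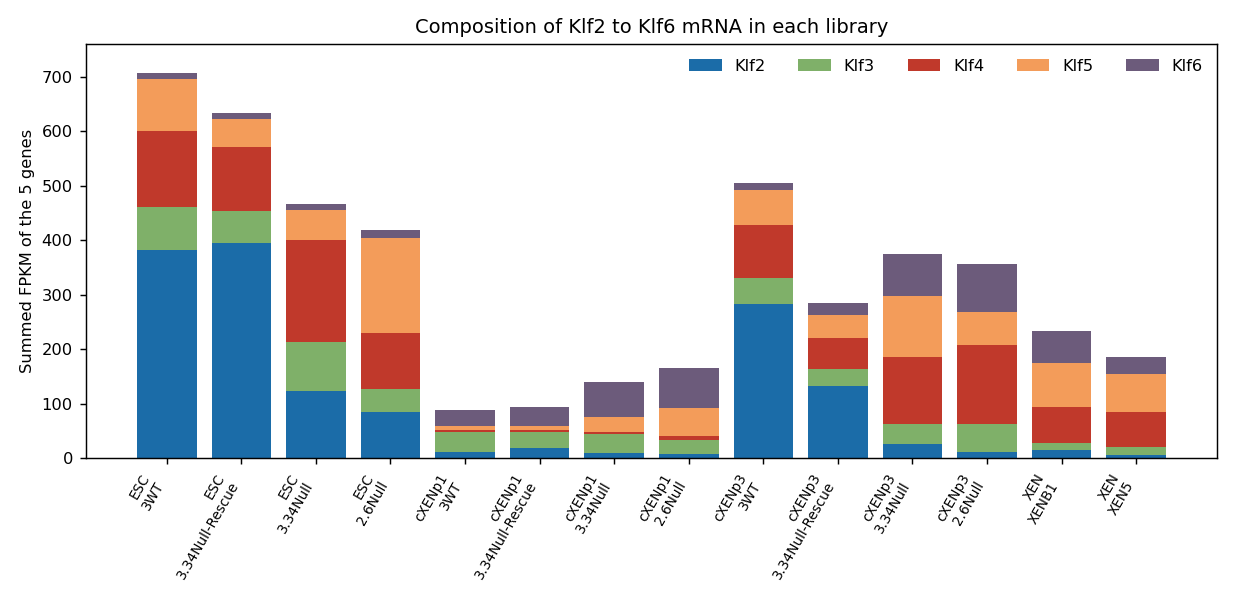
Summed FPKM of the 5 members in each library, stacked by member. The sum is 88.3 to 166 FPKM at cXENp1, and the Klf2 part is 7.0% and 3.28% in Zfp281KO lines at cXENp3 against 56.2% and 46.9% in Zfp281-present lines.

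At cXENp3 the Zfp281KO means stood at 176.8% of the XEN mean for Klf2, 327.0% for Klf3, 204.5% for Klf4, 112.6% for Klf5 and 186.4% for Klf6. By these means Klf5 was the member nearest to its XEN level, and Klf3, a lost member, the farthest above it. The Klf5 mean joins 110 FPKM in 3.34Null, above both XEN lines, and 59.6 in 2.6Null, below both. Klf2 in 2.6Null, at 11.7 FPKM, lay between XEN5 and XENB1. The highest of the 14 libraries exceeded the lowest 73.3-fold for Klf4, 67.9-fold for Klf2, 22.7-fold for Klf5, 8.33-fold for Klf6 and 7.12-fold for Klf3. Over the 14 libraries, Pearson r of log2(FPKM + 1) was 0.80 for Klf4 with Klf5, 0.67 for Klf2 with Klf3 and -0.84 for Klf2 with Klf6. These libraries share lines and stages, and r is a description.

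Other Krüppel-like genes were followed as 12 further symbols, 9 of which passed the filter on low values. Klf1, Klf14 and Klf17 did not. From ESC to cXENp1, 6 of the 9 fell and 0 rose, with a median of -1.19 where the median of all genes was 0 and 13.8% of all genes fell. In this comparison 14.7% of all genes rose, and these shares are the background for the list counts from ESC to cXENp1 that follow. Klf9, a factor induced by steroid and thyroid hormones, fell from 42.0 to 55.1 FPKM in ESCs to 6.21 to 23.4 at cXENp1, a change of -2.04 (SE 0.35, adjusted p = 0.00381). Klf10, a TGF-beta induced gene, fell by 1.85 on the log2 scale (adjusted p = 0.00394). After scaling to TPM, Klf8 and Klf16 were no longer called and Klf7 was called higher. At cXENp3, Klf10 was the 1 of the 9 called between classes, where 41.9% of all genes were called, 22.9% higher and 19% lower. It was lower in Zfp281KO lines at -1.55 (SE 0.49, adjusted p = 0.0284).

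**Figure D4:**
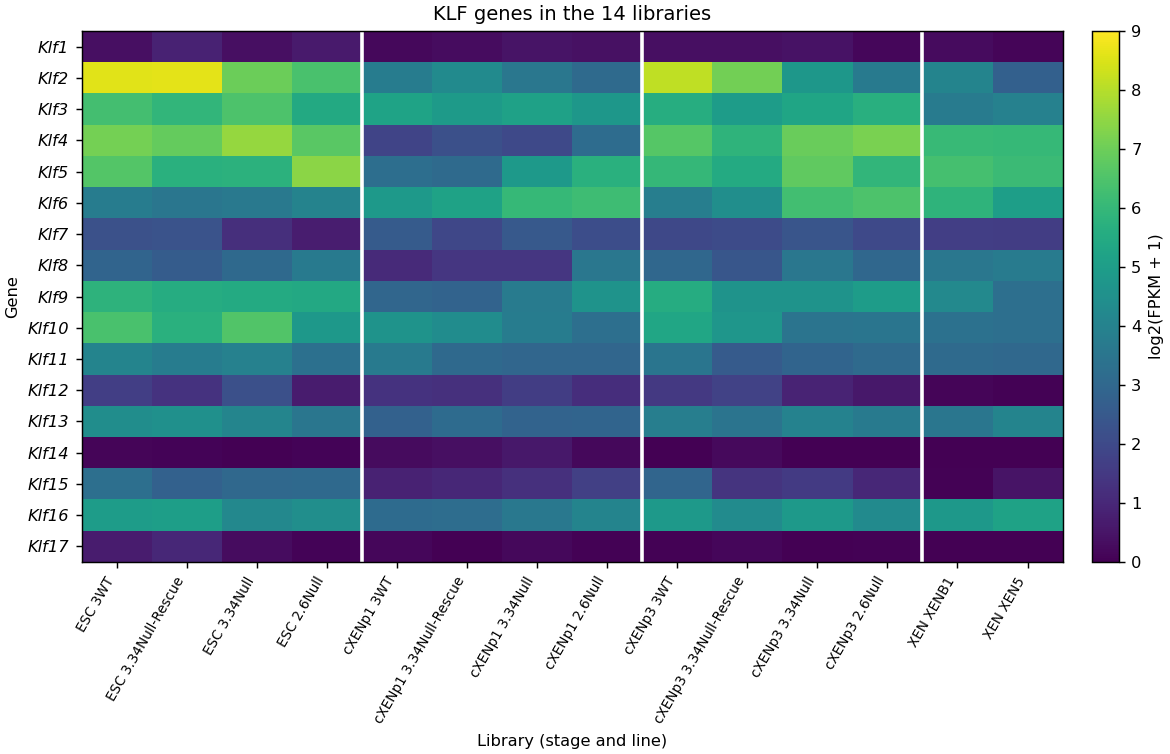
Heat map of log2(FPKM + 1) for Krüppel-like genes in 14 libraries, with the gene on the vertical axis and the library on the horizontal axis. Klf9 falls from 42.0 to 55.1 FPKM in ESCs to 6.21 to 23.4 at cXENp1.

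SP factors, the sister family that binds the same GC boxes, gave 2 higher and 2 lower of 7 tested from ESC to cXENp1, where the split was 3 and 0 after scaling to TPM, with Sp1 changing direction, and 0 and 1 after quantile scaling. At cXENp3, 2 of the 7 were called between classes, where 22.9% of all genes were higher and 19% lower. These were Sp6 and Sp8, higher in Zfp281KO lines by 1.96 and 1.98.

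The routes that feed Klf4 and Klf2 in ESCs were followed next. Of 10 LIF and STAT3 genes, Socs3, a direct STAT3 target that dampens the route, fell from 50.4 to 143 FPKM in ESCs to 3.97 to 5.32 at cXENp1, a change of -4.11 (SE 0.37, adjusted p = 0.000236). In that comparison 2 of the 10 were called higher and 4 lower, or 2 and 2 after scaling to TPM. Socs3 and Klf4 were both low in each line at cXENp1. Pim1, another gene of the list, was not called there. Its level fell from 98.5 to 38.9 FPKM in 3WT and from 84.4 to 33.7 in 3.34Null-Rescue. In 3.34Null it rose from 48.1 to 105 FPKM and in 2.6Null from 37.3 to 65.4. At cXENp3, 5 of the 10 were higher in Zfp281KO lines and 2, Pim1 and Pim3, were lower, against 22.9% and 19% of all genes. Socs3 was not called there after quantile scaling, which left 4 higher. Lif, the ligand, was 1.34 and 2.97 FPKM in 3WT and 3.34Null-Rescue and 24.8 and 15.4 in 3.34Null and 2.6Null, a change of 2.75 (adjusted p = 0.000706). Lifr, its receptor, was higher by 2.46.

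Of 13 ERK and ERK5 genes, 2 rose and 5 fell from ESC to cXENp1, or 5 and 5 after scaling to TPM. Fgf4, the ESC ligand that drives ERK, was 78.3 to 175 FPKM in ESCs, at most 0.579 at cXENp1 and listed at 0 in both XEN lines. Mapk7, which encodes ERK5, the kinase that raises Klf2 through MEF2 factors, was 22.7 and 26.1 FPKM in Zfp281-present ESCs and 13.2 and 11.98 in Zfp281KO ESCs, a change of -0.90 (SE 0.20, adjusted p = 0.0515) that was called after scaling to TPM. At cXENp3, 1 of the 13 was higher in Zfp281KO lines and 3 were lower (0 and 4 after quantile scaling), fewer in all than the 41.9% called over all genes, with Fgf4 at -3.02 and Etv5, an ERK target, at -2.62. By limma, 0 of these 13 were called between classes in ESCs or at cXENp1, and 2 had an unadjusted p under 0.05 at each stage. The LIF and STAT3 genes also had 0 called, with 4 and 1 under an unadjusted p of 0.05. Of all 13191 genes, 1.97% were called in ESCs and 0.485% at cXENp1, so 0 called is near the background share. Over all genes 2762 and 1486 had an unadjusted p under 0.05 at these stages.

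Partners of the members in the naive network, such as Nanog, Esrrb and Tfcp2l1, gave 11 of 12 called lower from ESC to cXENp1, with a median of -4.56. At cXENp3, 11 of 12 were lower in Zfp281KO lines than in Zfp281-present lines (10 after scaling to TPM), where 19% of all genes were lower. Of 7 corepressors and ubiquitin ligases, Ctbp2, the corepressor that Klf3 recruits, fell from 55.9 to 111 FPKM in ESCs to 16.3 to 28.0 at cXENp1, a change of -1.69. It was 1 of the 7 called lower there, beside 2 called higher, or 4 after scaling to TPM. At cXENp3, 1 of the 7 was called between classes, where 22.9% of all genes were higher and 19% lower. This was Smurf1, a ubiquitin ligase, higher by 1.10 in Zfp281KO lines.

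Immediate early genes, the class of stimulus-induced genes in which Klf6 is often placed, gave 3 higher of 10 tested from ESC to cXENp1, or 6 after scaling to TPM. Jun, a subunit of AP-1, was 1.37 to 6.34 FPKM in ESCs and 39.9 to 65.0 at cXENp1, a change of 3.68. At cXENp3, 5 of 10 were higher in Zfp281KO lines and 0 lower, where 22.9% of all genes were higher and 19% lower. Atf3, a stress-induced factor, was 1.03 and 1.43 FPKM in Zfp281-present lines and 72.6 and 81.6 in Zfp281KO lines, a change of 5.13 (SE 0.43, adjusted p = 7.85e-05). The other 5 were not called, among them Ier2, at 191 and 144 FPKM in 3WT and 3.34Null-Rescue and 86.3 and 97.6 in 3.34Null and 2.6Null.

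For each member, the genes with the highest Pearson r over the 14 libraries were taken from 13369 genes. Klf2 was most like Pecam1, an adhesion molecule (r = 0.973), Eras, an ESC Ras protein (r = 0.973), and Cpsf4l (r = 0.971). Pecam1 was 11.8 to 38.8 FPKM in ESCs, 15.7 to 29.7 in Zfp281-present cXENp3, 0.840 to 1.84 in Zfp281KO cXENp3 and 0.110 to 0.409 in XEN lines. Klf3 was most like Mtf1 (r = 0.945), Camk1d (r = 0.943) and Ddx19b (r = 0.927). Klf4 was most like Ankrd35 (r = 0.972), Tmc6 (r = 0.946) and Smagp (r = 0.944). Ankrd35 was 3.10 to 4.201 FPKM in ESCs, 0.120 to 0.436 at cXENp1 and 2.49 to 3.22 in XEN lines. Genes in these lists were picked by r over the same libraries, so a course shared with a member follows from the choice.

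Klf5 was most like Spry2, an inhibitor of receptor tyrosine kinase signalling (r = 0.945), Tmem160 (r = 0.938) and Hk2, a hexokinase (r = 0.932). Klf6 was most like Irf2 (r = 0.955), Tnfaip1 (r = 0.955) and Dusp8, a MAP kinase phosphatase (r = 0.953). Dusp8 was 0.0555 to 0.301 FPKM in ESCs, 2.47 to 5.46 at cXENp1 and 3.22 to 6.21 in XEN lines.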

How the data were processed

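RNA-seq values of 14 mouse libraries were taken from 1 table deposited by the authors. The values are FPKM as the authors deposited them, a unit inferred from Cufflinks and the non-whole values. The submitters' processing notes name STAR 2.5.3, Cufflinks 2.1.1 and mm9. Start coordinates were shifted to count from 1. Tests ran on log2(FPKM + 1), a scale on which changes of low genes come out too small. Genes with at least 1 FPKM in 2 of the 12 course libraries were fitted (13191 genes) with limma 3.58.1 in R 4.3.3 (lmFit, eBayes with trend), and adjusted p-values are Benjamini-Hochberg over all of them, with a threshold of 0.05. All 5 members passed that filter. Stage comparisons used the line as a block, since stages of a line come from the same cells. Comparisons between classes used 6 groups of 2 libraries, with 6 residual degrees of freedom. Nothing says that libraries of a class are separate derivations, so p-values measure the spread between these libraries. The fits were tested on simulated data.

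Named genes are the members, Zfp281, members of the pathway and marker lists, and the 3 genes most correlated with each member. The members and lists were chosen with earlier results of these data known. Alternatives changed the pseudocount (0.1), the filter, the scaling, the trend, the prefix term, the block and the lines.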

Additional observations from a re-analysis of the deposited data

Results flagged for a closer look

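The change from cXENp1 to cXENp3 differed between the classes for Klf2, where the test of the difference itself (Zfp281KO minus Zfp281-present) gave -2.70 (limma adjusted p = 0.0187). Klf6 was lower at cXENp3 than at cXENp1 in both Zfp281-present lines (-0.87, adjusted p = 0.0457, called in 6 of 12 alternatives) and higher in both Zfp281KO lines by a change that was called neither here nor in any alternative (0.28, adjusted p = 0.405, and 0.02 after quantile scaling). The difference of 1.15 did not pass the threshold (adjusted p = 0.0518).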

How the results depend on the processing

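Counts of members called follow. From ESC to cXENp1 the count was 5, and 1 with the library prefix as a term, as calls over all genes went from 3760 to 439. From cXENp1 to cXENp3 in Zfp281-present lines it was 4, and 2 when every gene with any value above 0 was kept (1388 and 1044 over all genes). For the difference of changes it was 1, and 2 among genes with a mean of at least 5 FPKM or after scaling to TPM (1583, 1183 and 1680 over all genes). Between classes in ESCs it was 0, and 1 under each of these settings (260, 267 and 200 over all genes). Leaving out 1 line gave 3 to 5 from ESC to cXENp1, 1 to 2 from cXENp1 to cXENp3 in Zfp281KO lines, 1 to 3 in Zfp281-present lines, 0 to 2 for the difference, 0 to 1 in ESCs, 0 to 1 at cXENp1 and 2 at cXENp3, where a class left with 1 library is assumed to vary like the other groups. Without 3WT the calls over all genes fell to 72 in Zfp281-present lines and to 12 for the difference. With no replicate block in the stage comparisons the counts stayed at 5, 1, 4 and 1, and with a replicate block between classes at 0, 0 and 2. Scaling to TPM moved the median gene to -0.31 from cXENp1 to cXENp3 in Zfp281-present lines, 0.25 for the difference, -0.12 at cXENp1 and 0.11 at cXENp3.

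Of 420 member values over the alternatives, 373 kept direction and side of the threshold, 20 lost the call, 8 gained it and 19 changed sign, and none of those 19 was called. The sign changes between classes in ESCs were Klf4 at -0.0114 after quantile scaling, Klf3 at 0.38, Klf5 at -0.36 and Klf6 at -0.0142 with the prefix term, Klf3 at 0.07 without 3WT, Klf3 at 0.38, Klf5 at -0.36 and Klf6 at -0.0142 without 2.6Null, Klf4 at -0.31 without 3.34Null and Klf4 at -0.0048 without 3.34Null-Rescue. At cXENp1 they were Klf3 at 0.06 without 3WT and, without 2.6Null, Klf3 at 0.10 and Klf4 at -0.0044. At cXENp3 they were Klf3 at -0.0021 without 2.6Null and -0.12 without 3.34Null-Rescue. Klf3 from cXENp1 to cXENp3 in Zfp281-present lines was -0.13 after scaling to TPM. For the difference of changes they were Klf3 at -0.10 without 2.6Null, and Klf4 at -0.20 without 3.34Null and -0.30 without 3.34Null-Rescue. Klf6 from cXENp1 to cXENp3 in Zfp281-present lines lost its call with every gene above 0 kept (adjusted p = 0.0629) and without the trend (adjusted p = 0.0581), and Klf5 with every gene kept (adjusted p = 0.0505). The Klf6 difference of changes was called after scaling to TPM (1.46, adjusted p = 0.0412), or with a mean of at least 5 FPKM (adjusted p = 0.0493), and the Klf5 difference without 3.34Null (-2.34, adjusted p = 0.0253). Over the left-out lines, the values with sign changes ran up to 0.71 (Klf3) and 0.83 (Klf4) for the difference of changes, up to 0.55 (Klf4), 1.30 (Klf5) and 0.35 (Klf6) and down to -0.64 (Klf3) in ESCs, up to 1.17 (Klf4) at cXENp1 and up to 0.53 (Klf3) at cXENp3. The cause was not tested. Depth is unknown, which leaves the error of low values unknown.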
